A study of Mus musculus with 15 samples.

Results

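The guanylate-binding proteins are a family of large GTPases that cells make when interferons signal. The genes described here are Gbp2, Gbp2b, Gbp3, Gbp4, Gbp5, Gbp6, Gbp7, Gbp8, Gbp9 and Gbp10, taken by symbol from a colon RNA sequencing table. These are 10 of the 22063 genes in the table, and 7 of them were high enough to be tested among 12917 genes. Wild-type C57BL/6 mouse colon was sampled in 3 groups of 5 libraries: untreated controls, the AOM/DSS group and the group labelled WMW-H. AOM (azoxymethane) is a carcinogen and DSS (dextran sulfate sodium) injures the colon epithelium, and the pair is used to induce colorectal tumours. Wumei Wan, a herbal formula, is the subject of the series, which compares WMW-H with the tumour model as a treatment. The labels of the WMW-H libraries name only WMW-H, and the sources used here give no dose, age or timing. It is not stated in the labels if each library stands for its own mouse, and n counts libraries throughout. Libraries of a group were close to each other, with a mean r with the own group of 0.9927 to 0.9953. Each p-value sets a group difference against this small spread, which may be technical. Whether the spread includes differences between mice was not tested, so small p-values are not read as evidence across mice.

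Interferons bind receptors that activate JAK kinases, which pass the signal to transcription factors that enter the nucleus. Those factors bind GAS elements and interferon-stimulated response elements (ISRE) in front of target genes, and IRF9-containing complexes and IRF1 bind the latter. Guanylate-binding proteins coat vacuoles that hold microbes and bacteria free in the cytosol, and help inflammatory caspases to sense bacterial lipopolysaccharide. They work beside the immunity-related GTPases and the autophagy conjugation machinery, and in the gut they are made by epithelium, macrophages and endothelium among other cells.

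In the RefSeq gene order of GRCm38.p6 the members form 2 clusters of 5 genes. Gbp5, Gbp7, Gbp3, Gbp2b and Gbp2 are neighbours in that order, with only Gm40158 between them, and Gbp8, Gbp9, Gbp4, Gbp10 and Gbp6 lie together elsewhere. RefSeq promoter windows of 300 bases, which reach from upstream of a start to just past it, were matched for the 5 members of the first cluster in 6 windows. All 5 hold the ISRE core GAAANNGAAA, searched on both strands, which 3.44% of 32851 RefSeq promoter windows hold. The stretches around it are shown because they are what these neighbours share in front of their starts. Each lies on the plus strand of GRCm38.p6, at chr3:142496744-142496803 for Gbp5, chr3:142530258-142530317 for Gbp7, chr3:142559977-142560036 for Gbp3, chr3:142594685-142594744 for Gbp2b and chr3:142620579-142620638 for Gbp2. Capitals mark the match, which reads TTTCNNTTTC on this strand.
Gbp5: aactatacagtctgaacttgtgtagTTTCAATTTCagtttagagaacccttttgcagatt
Gbp7: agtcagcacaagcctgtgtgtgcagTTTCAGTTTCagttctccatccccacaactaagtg
Gbp3: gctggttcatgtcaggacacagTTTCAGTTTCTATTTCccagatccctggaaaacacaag
Gbp2b: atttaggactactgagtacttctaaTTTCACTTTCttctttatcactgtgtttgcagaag
Gbp2: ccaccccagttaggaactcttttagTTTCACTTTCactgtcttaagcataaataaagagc

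The matches begin 165 bases before the start in Gbp5, 53 in Gbp7, 45 and 39 in Gbp3 (a pair that overlaps), 137 in Gbp2b and 59 in Gbp2. The GAS letters TTCNNNGAA, which read the same on both strands, are in 8.3% of all windows. Gbp5 and Gbp7 each hold 2 such matches, and the windows of Gbp3, Gbp2b and Gbp2 hold none of those letters. A second start window of Gbp3 holds neither motif. A match is a description of letters and not a measured binding site. Only these letters were searched, so a window without a match is not shown to lack such elements.

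Levels are in FPKM, which divides fragments by transcript length and by library depth, so they can be compared between genes. Depth was 16400000 to 21100000 fragments per library, estimated from the values themselves. The labels give colon epithelial cells, and the epithelial markers Epcam, Cdh1 and Krt8 were high throughout. Markers of other cells were present too. Summed over its markers, pancreas stood at a mean of 19280 FPKM in control, 4162 in AOM/DSS and 7755 in WMW-H, the macrophage list at 362.1, 751.4 and 608.8, and the T and NK cell list at 74.0, 28.6 and 31.6. Within control the pancreas sum ran only from 19070 to 19430 FPKM over the 5 libraries, and the source of so small a spread was not tested. Fewer cells of a type and less RNA per cell cannot be told apart in such bulk samples. WMW-H replicate 3 stood apart on the third principal component, at 16.66 against -5.72 to 1.56 in the other libraries, and the effect of leaving it out is given beside the counts.

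The family as a whole was lowest in AOM/DSS. The 10 members summed to 50.4 ± 0.912 FPKM in control, 21.6 ± 1.09 in AOM/DSS and 37.7 ± 0.734 in WMW-H (SD, n = 5 each). The ranges of the 3 groups did not overlap. The share of all genes whose groups stay apart was not worked out, so here and below non-overlap only describes the values. Gbp2 was the most abundant member in every group and made up 40.0% of the control sum, 47.1% of the AOM/DSS sum and 46.2% of the WMW-H sum. Gbp3 held 21.6%, 11.7% and 16.4% of the sum, and Gbp6 15.2%, 9.34% and 10.7%.

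**Figure D1:**
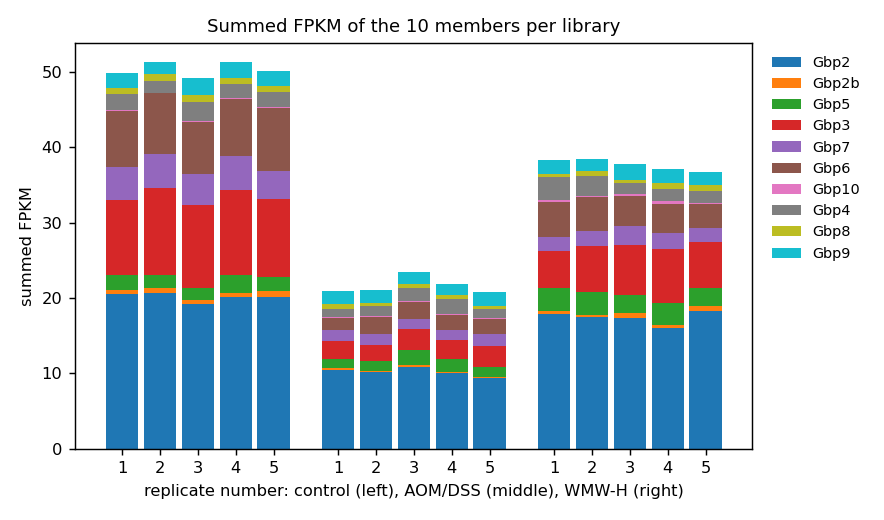
Stacked bars give the summed FPKM of the 10 members in each of the 15 libraries, by replicate number within control (left), AOM/DSS (middle) and WMW-H (right). Control libraries sum to 49.2 to 51.3 FPKM, AOM/DSS to 20.8 to 23.4 and WMW-H to 36.7 to 38.5, with Gbp2 the tallest segment in each.

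Differences were tested with limma on log2(FPKM + 1), adjusted over all tested genes with a threshold of 0.05. Of the 7 tested members, 4 fell in AOM/DSS against control: Gbp3, Gbp6, Gbp7 and Gbp2. Across all tested genes, 20.6% were called lower and 45.5% higher in that comparison. Gbp4, Gbp5 and Gbp9 did not pass. In WMW-H against AOM/DSS 5 members rose, Gbp3, Gbp6, Gbp2, Gbp5 and Gbp7, beside 25.9% of all tested genes called higher and 40.9% lower. Against control, the WMW-H group was lower in 4 members (24.1% of all genes) and higher in 1, Gbp5 (35.4% of all genes). The comparisons share groups, so a low AOM/DSS level enters the first and the second alike. The median log2 difference over the 7 tested members was -0.92, 0.57 and -0.20 in the order above, against 0.12, -0.07 and 0.05 over all tested genes. Without WMW-H replicate 3 the counts were 4 lower, 6 higher (Gbp4 added), and 4 lower with 1 higher. Shares of all genes called in that fit are not given, so nothing about the members is read from these counts.

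**Figure D2:**
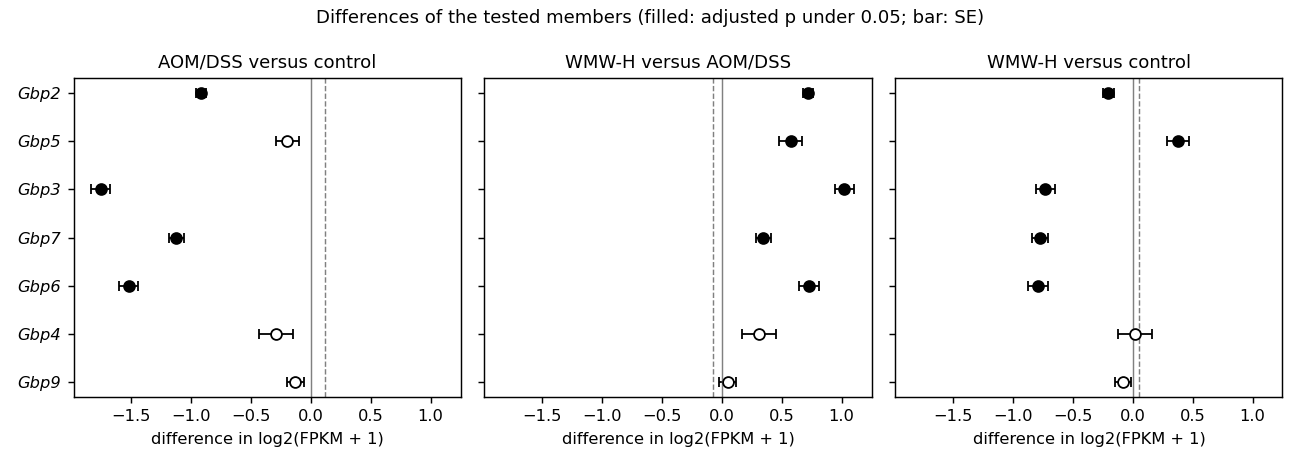
Points give the limma difference in log2(FPKM + 1) of each of the 7 tested members in the 3 comparisons, with bars for the SE, filled where the adjusted p is under 0.05. The dashed line is the median of all tested genes. Gbp3, Gbp6, Gbp7 and Gbp2 are filled in every panel, and Gbp5 is filled in both WMW-H panels.

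Scaling between libraries bears on the model count. With size factors or quantile normalization, the median of all genes in AOM/DSS against control moved from 0.12 to 0.01 and -0.02, and all 7 tested members were then called lower, beside 29.8% and 32.3% of all genes. The share of calls that were higher went from 68.9% to 51.4% and 47.5% in that comparison, from 38.8% to 47.5% and 49.6% in WMW-H against AOM/DSS, and from 59.5% to 50.6% and 48.0% in WMW-H against control. The calls for Gbp2, Gbp3, Gbp6 and Gbp7 in all 3 comparisons, and for Gbp5 in both WMW-H comparisons, held under each alternative in which these genes were tested.

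**Figure D3:**
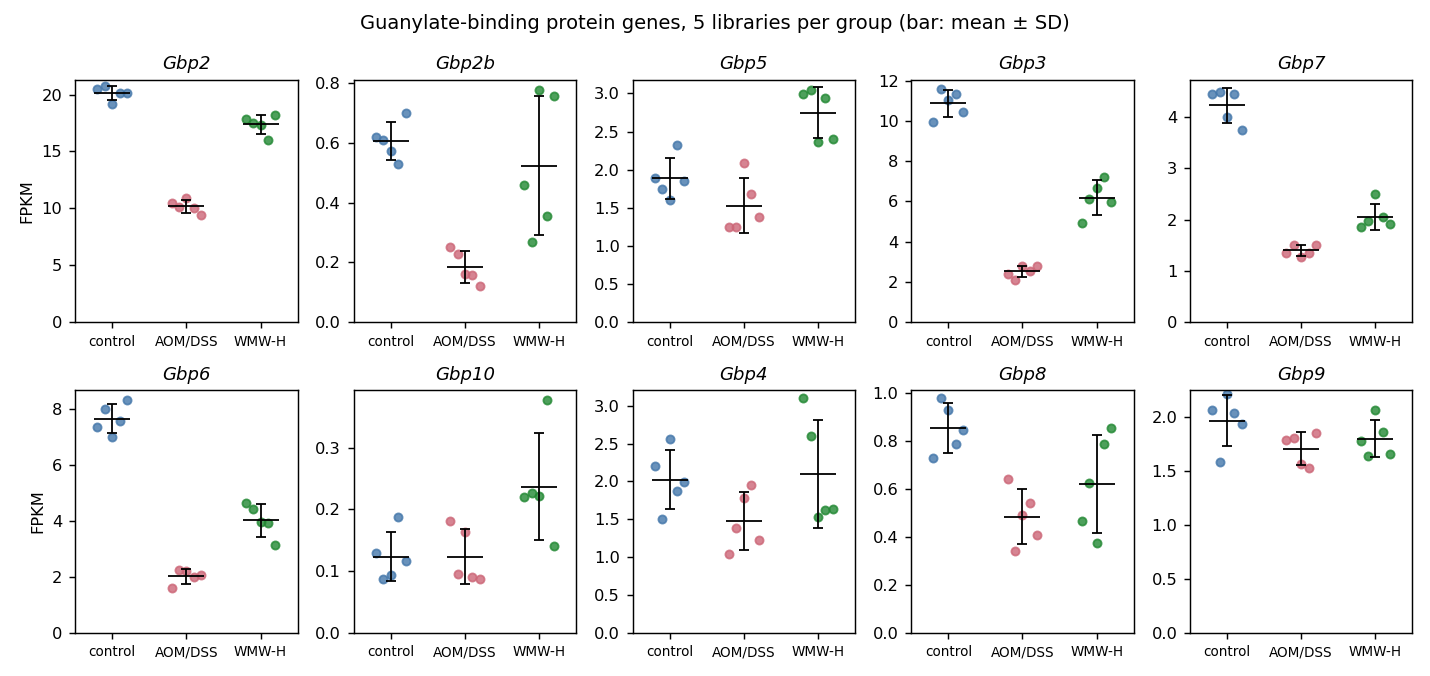
Each panel plots FPKM of 1 member in the 15 libraries, 5 points per group, with the mean and SD, on an axis that starts at 0. Gbp2, Gbp3, Gbp6 and Gbp7 separate into 3 levels with AOM/DSS lowest, Gbp5 is highest in WMW-H, and the groups of Gbp4, Gbp9 and Gbp10 overlap. The share of all genes that separate in this way was not worked out.

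Gbp2 (ENSMUSG00000028270) is a lipid-anchored member that gathers on pathogen vacuoles in interferon-treated cells. In control it stood at 20.5, 20.7, 19.2, 20.2 and 20.2 FPKM. The AOM/DSS libraries had 10.5, 10.1, 10.9, 10.05 and 9.39 FPKM, and the WMW-H libraries 17.9, 17.5, 17.3, 16.0 and 18.2. No 2 groups overlapped, and WMW-H lay nearer to control than to AOM/DSS. The control mean was 1.98 times the AOM/DSS mean (log2 difference -0.92, SE 0.042, limma adjusted p = 4.08e-12). WMW-H was 1.71 times AOM/DSS (adjusted p = 2.07e-10) and remained below control by a small margin (log2 difference -0.20, adjusted p = 5.69e-04). In FPKM, the WMW-H mean lay 72.3% of the distance from the AOM/DSS mean to the control mean, and single libraries 58.7% to 80.7%. This value is a position between group means and not a change over time. It is given only for members called lower in AOM/DSS.

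Gbp3 (ENSMUSG00000028268), a neighbour of Gbp7 and Gbp2b, had the largest log2 differences among the tested members in AOM/DSS against control and in WMW-H against AOM/DSS. Control libraries had 9.97, 11.6, 11.03, 11.4 and 10.4 FPKM. In AOM/DSS the values were 2.38, 2.12, 2.79, 2.53 and 2.79, and in WMW-H 4.91, 6.13, 6.64, 7.23 and 5.98. The 3 groups were again apart, with WMW-H between. The control mean was 4.31 times the AOM/DSS mean (log2 difference -1.76, SE 0.080, limma adjusted p = 3.72e-12). WMW-H was 2.45 times AOM/DSS (log2 difference 1.02, adjusted p = 7.48e-09) and below control (log2 difference -0.73, adjusted p = 6.47e-07). The WMW-H mean lay 43.8% of the distance from the AOM/DSS mean to the control mean, and its libraries 28.6% to 56.5%.

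Gbp6 (ENSMUSG00000104713), of the second cluster, followed the same order. Its control values were 7.37, 8.01, 7.02, 7.57 and 8.34 FPKM. AOM/DSS libraries had 1.59, 2.23, 2.22, 1.997 and 2.07, and WMW-H libraries 4.65, 4.42, 3.96, 3.91 and 3.15. Each AOM/DSS library lay below each WMW-H library, and those below each control. The control mean was 3.79 times that of AOM/DSS (log2 difference -1.52, SE 0.082, limma adjusted p = 3.71e-11). WMW-H was 1.99 times AOM/DSS (limma adjusted p = 6.62e-07) and below control (log2 difference -0.79, limma adjusted p = 3.37e-07). Its mean lay 35.4% of the distance from the AOM/DSS mean to the control mean. Gbp6 shares 82.9% of its 100-base stretches with other annotated genes, mainly Gm43302 and Gbp10, so how its reads were divided among them is uncertain. Gm43302 did not exceed 0.299 FPKM in any library, a value that depends on the same division of reads.

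Gbp7 (ENSMUSG00000040253) is known for its part in autophagy-linked defence of macrophages. The control libraries had 4.45, 4.497, 4.01, 4.46 and 3.75 FPKM. Values in AOM/DSS were 1.35, 1.51, 1.27, 1.35 and 1.51, and in WMW-H 1.86, 1.97, 2.5, 2.05 and 1.92. The groups did not overlap, and WMW-H lay closer to AOM/DSS than to control. The control mean was 3.02 times the AOM/DSS mean (log2 difference -1.12, SE 0.066, limma adjusted p = 1.22e-10). WMW-H was 1.47 times AOM/DSS (limma adjusted p = 1.95e-04) and below control (log2 difference -0.78, limma adjusted p = 3.11e-08). Its mean lay 23.3% of the distance from the AOM/DSS mean to the control mean. About 10.01% of its 100-base stretches occur in other genes, mainly Gm43802, which was not analysed here.

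Gbp5 (ENSMUSG00000105504), known for promoting inflammasome assembly, had another order of groups. Control libraries stood at 1.89, 1.75, 1.60, 2.33 and 1.86 FPKM. AOM/DSS had 1.251, 1.247, 2.08, 1.69 and 1.37, and WMW-H had 2.998, 3.04, 2.37, 2.94 and 2.40. Control and AOM/DSS overlapped, while every WMW-H library was above every library of the other groups. The WMW-H mean of Gbp5 was 1.80 times the AOM/DSS mean (log2 difference 0.57, SE 0.095, limma adjusted p = 4.88e-05) and 1.46 times the control mean (log2 difference 0.38, adjusted p = 0.00256). The difference of -0.20 between AOM/DSS and control did not pass (SE 0.095, adjusted p = 0.0791), but did with size factors (0.0189), quantile normalization (0.00572) and without AOM/DSS replicate 3 (0.0132).

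Gbp4 and Gbp9, members of the second cluster, had group means from 1.48 to 2.10 FPKM. Gbp4 (ENSMUSG00000079363) had 2.21, 1.497, 2.56, 1.87 and 1.99 FPKM in control, 1.04, 1.38, 1.78, 1.96 and 1.23 in AOM/DSS, and 3.10, 2.60, 1.53, 1.63 and 1.63 in WMW-H. Its groups overlapped in every comparison, with WMW-H replicates 1 and 2 high. The log2 difference of Gbp4 was -0.29 in AOM/DSS against control (SE 0.142, limma adjusted p = 0.0806), 0.31 in WMW-H against AOM/DSS (adjusted p = 0.0660) and 0.02 in WMW-H against control (adjusted p = 0.933). The first passed with size factors (0.0322), quantile normalization (0.0133), in a fit of only those 2 groups (0.0409), and without control replicate 2 (0.0429), AOM/DSS replicate 4 (0.0429) or WMW-H replicate 1 (0.0492). The second passed with size factors (0.0394), quantile normalization (0.02999), and without AOM/DSS replicate 4 (0.0352) or WMW-H replicate 3 (0.0345), 4 (0.0464) or 5 (0.0465). For Gbp4 the call therefore turned on single libraries and on the scaling, and the sign of the last comparison did too.

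Gbp9 (ENSMUSG00000029298) had the smallest log2 differences among the 7 tested members in AOM/DSS against control and in WMW-H against AOM/DSS. Control libraries had 2.06, 1.59, 2.21, 2.03 and 1.93 FPKM, AOM/DSS 1.79, 1.81, 1.56, 1.53 and 1.85, and WMW-H 1.78, 1.64, 2.06, 1.86 and 1.66. The 3 groups overlapped. The log2 differences were -0.13 (SE 0.068, limma adjusted p = 0.107), 0.05 (adjusted p = 0.550) and -0.08 (adjusted p = 0.325) in the order used above. Against control the AOM/DSS value of Gbp9 passed with size factors (0.0164), quantile normalization (0.00317) and without control replicate 2 (0.0259), and the WMW-H value passed with quantile normalization (0.0481).

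Gbp2b, Gbp8 and Gbp10 were below the minimum for testing, 1 FPKM in at least 5 libraries, and were fitted only in a fit without that filter. That fit called 16.7% of 18399 genes lower in AOM/DSS against control, 19.1% higher in WMW-H against AOM/DSS and 25.9% higher in WMW-H against control. Gbp2b (ENSMUSG00000040264), the gene formerly called Gbp1 in the mouse, had 0.620, 0.610, 0.572, 0.530 and 0.700 FPKM in control, 0.250, 0.228, 0.161, 0.158 and 0.120 in AOM/DSS, and 0.460, 0.270, 0.779, 0.354 and 0.757 in WMW-H. AOM/DSS lay below both other groups, and WMW-H spread widely across and around the control range. The control mean was 3.31 times that of AOM/DSS (limma adjusted p = 2.70e-04 without the filter) and WMW-H was 2.86 times AOM/DSS (adjusted p = 0.00178). These levels rest on an estimated 28 to 37 fragments in control, 6 to 13 in AOM/DSS and 14 to 36 in WMW-H.

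Gbp8 (ENSMUSG00000034438) had 0.728 to 0.980 FPKM in control, 0.342 to 0.641 in AOM/DSS and 0.376 to 0.855 in WMW-H. Its AOM/DSS libraries were all below control (limma adjusted p = 0.00304 without the filter), while WMW-H overlapped both. Gbp10 (ENSMUSG00000105096) was the least abundant member, at 0.088 to 0.187, 0.088 to 0.181 and 0.140 to 0.378 FPKM. Its groups overlapped, and its WMW-H values against AOM/DSS (adjusted p = 0.0163) and against control (adjusted p = 0.0181) passed without the filter on an estimated 5 to 23 fragments per library. Gbp10 shares 70.9% of its 100-base stretches with other genes, mainly Gm43302 and Gbp6, so its split from Gbp6 is uncertain. Members other than Gbp6, Gbp7 and Gbp10 shared at most 3.81% of their 100-base stretches. Of 50-base stretches, Gbp8 shared 21.2%, Gbp4 11.9% and Gbp9 9.56%, and Gbp2, Gbp2b, Gbp3 and Gbp5 at most 3.83%. Read length is not given, so the reads of Gbp8, Gbp4 and Gbp9 may be uncertain too.

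The order of the members also moved between groups. In control Gbp2, Gbp3, Gbp6 and Gbp7 stepped down with no overlap of neighbours, and Gbp4, Gbp9 and Gbp5 followed with overlapping ranges. In AOM/DSS only Gbp2 stood clear at the top: from Gbp3 through Gbp6, Gbp9, Gbp5 and Gbp4 to Gbp7, each neighbour in the order overlapped the next. In WMW-H Gbp2, Gbp3 and Gbp6 were apart again, while Gbp5, Gbp4, Gbp7 and Gbp9 overlapped as neighbours.

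Paired members did not all change by the same amount on the log2(FPKM + 1) scale. That scale understates differences of low genes, so equal fold changes of 2 genes can also shift their ratio. Of 6 pairs listed for comparison, 2 had both genes tested, and exact two-sided permutation tests of 5 against 5 libraries were adjusted over 6 tests, with 0.007937 the smallest p possible. The log2 ratio of Gbp2 to Gbp5 was 2.88 in control, 2.16 in AOM/DSS and 2.30 in WMW-H. It was lower by 0.72 in AOM/DSS and by 0.58 in WMW-H than in control (exact permutation, adjusted p = 0.0119 each). WMW-H and AOM/DSS differed by 0.14, which did not pass (exact permutation, adjusted p = 0.257). In mean FPKM, WMW-H was 1.71 times AOM/DSS for Gbp2 and 1.80 times for Gbp5. The ratio of Gbp3 to Gbp7 was 1.18, 0.55 and 1.23 in the same order. It was lower in AOM/DSS than in control by 0.63 and higher in WMW-H than in AOM/DSS by 0.68 (exact permutation, adjusted p = 0.0119 each). Between WMW-H and control it differed by 0.04 (exact permutation, adjusted p = 0.627). In mean FPKM, WMW-H was 0.57 times control for Gbp3 and 0.49 times for Gbp7.

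Among the genes that carry the interferon signal, the transcription factors Stat2, Irf9 and Irf7 fell in AOM/DSS. Of 20 tested ligands, receptors and transducers, 10 fell and 9 rose in AOM/DSS against control, 11 rose and 2 fell in WMW-H against AOM/DSS, and 11 were lower and 9 higher in WMW-H against control. Over all tested genes 20.6% fell and 45.5% rose, 25.9% rose and 40.9% fell, and 24.1% were lower and 35.4% higher in the same comparisons. The list's count of rises in AOM/DSS was therefore near the background. The list medians were -0.14, 0.09 and -0.25. Stat2 stood at 26.0, 9.42 and 14.1 FPKM in control, AOM/DSS and WMW-H, Irf9 at 33.2, 19.1 and 21.3, and Irf7, a factor that amplifies type I responses, at 252.4, 105.6 and 175.3. These genes fell in AOM/DSS and rose in WMW-H against it (limma, largest adjusted p = 0.00153, for Irf9 in WMW-H).

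Some receptor genes were called higher in AOM/DSS, as were 45.5% of all tested genes. Ifngr1 and Ifngr2, the chains of the interferon gamma receptor, rose from 92.3 to 102.9 and from 32.9 to 48.8 FPKM in AOM/DSS, and to 110.4 and 55.3 in WMW-H. The call for Ifngr1 in AOM/DSS was lost with size factors (limma adjusted p = 0.266), and those for Ifngr1 and Ifngr2 in WMW-H against AOM/DSS were lost with TPM (0.176 and 0.0663). Ifnar1 and Ifnar2 of the type I receptor rose in AOM/DSS as well. Irf1, which binds ISRE letters, fell from 110.5 to 89.1 FPKM in AOM/DSS, and its 85.9 FPKM in WMW-H did not pass against AOM/DSS (limma adjusted p = 0.154). Irf8, made in myeloid and B cells, had 35.5, 26.7 and 26.8 FPKM, and Ciita, the master factor of MHC class II, 5.77, 2.40 and 2.38. Neither passed in WMW-H against AOM/DSS (adjusted p = 0.972 and 0.842). In that comparison Irf1 passed as lower with TPM (0.0102) and without WMW-H replicate 1 (0.0419), with a turned sign and no call under size factors, and Irf8 passed as higher with quantile normalization (0.0406). Ifng itself was too low to test, at 0.117 ± 0.0841, 0.0180 ± 0.0403 and 0.0274 ± 0.0253 FPKM (SD, n = 5).

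The immunity-related GTPases, which act on the same vacuoles, had 11 tested genes. In AOM/DSS against control 10 fell and 1 rose, beside 20.6% and 45.5% of all tested genes. In WMW-H against AOM/DSS 10 rose and 1 fell, beside 25.9% and 40.9%. In WMW-H against control 10 were lower, beside 24.1%. The list medians were -1.50, 0.88 and -0.70. Irgm1, which keeps the system from attacking the cell's own membranes, had 60.3, 15.7 and 36.3 FPKM. Igtp had 40.4, 8.69 and 16.9, and Iigp1 15.9, 1.33 and 4.28. The exception was Irgq, a relative not known for induction by interferon, with 9.09, 14.0 and 8.53 FPKM.

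All 23 tested type I interferon response genes fell in AOM/DSS and all 23 rose in WMW-H against AOM/DSS, with medians of -1.81 and 1.13. In WMW-H against control 19 were lower (median -0.64). Over all tested genes 20.6% fell, 25.9% rose and 24.1% were lower in these 3 comparisons. Among them Isg15, a ubiquitin-like modifier, had 84.7, 11.6 and 57.1 FPKM, and Ifit1, which binds foreign RNA, 39.8, 4.38 and 26.4. Among 22 other interferon gamma response genes 20 fell and 1 rose in AOM/DSS (median -0.72), where 45.5% of all tested genes rose. In WMW-H against AOM/DSS 13 rose and 7 fell (median 0.21). Over all tested genes 40.9% fell in that comparison, so falls in the list were no more frequent than that. Against control 21 were lower in WMW-H (median -0.58). Tap1, the peptide transporter of MHC class I loading, had 45.9, 14.0 and 17.1 FPKM. The 7 that fell in WMW-H were Wars1, Psme1, Tapbp, Cd74, Ubd, Batf2 and Serpina3g, the last not passing with size factors (limma adjusted p = 0.0654) or quantile normalization (0.122). Cd74, the MHC class II chaperone, had 1047, 491 and 398 FPKM.

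**Figure D4:**
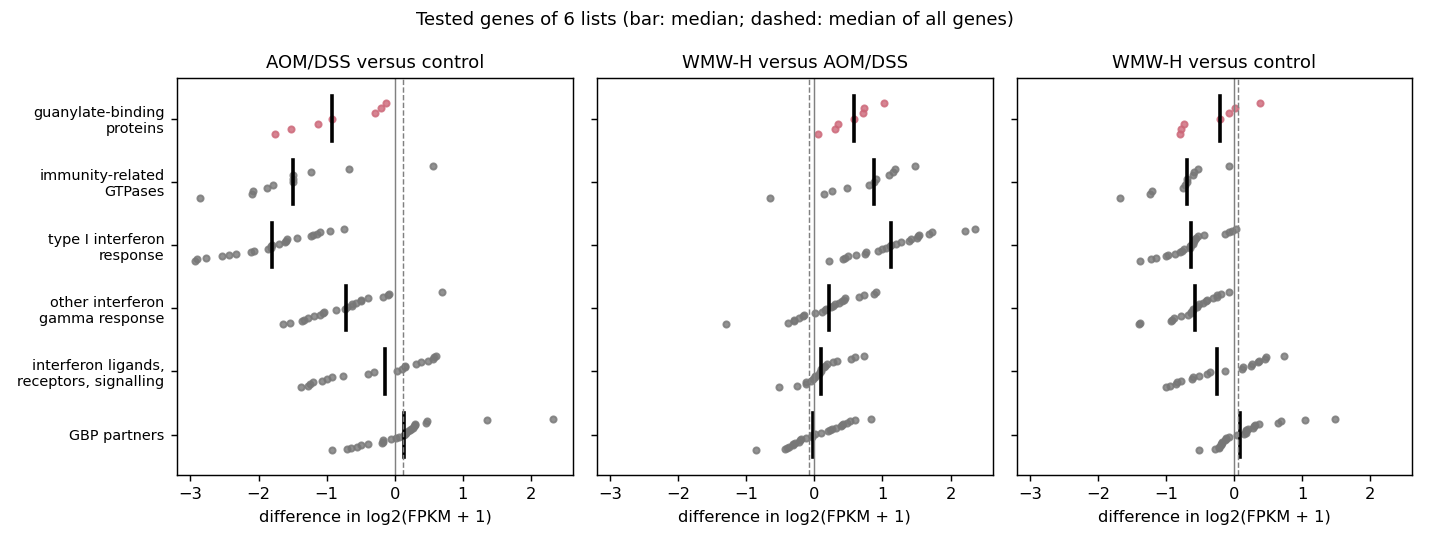
Points give the log2 difference of each tested gene of 6 lists in the 3 comparisons, with a bar for the list median and a dashed line for the median of all genes. The guanylate-binding proteins (top) have medians of -0.92, 0.57 and -0.20, and the partner list (bottom) lies about the median of all genes.

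The partners through which guanylate-binding proteins act were mixed as a list. Of 26 tested, 14 rose and 8 fell in AOM/DSS (median 0.14), 11 rose and 10 fell in WMW-H against AOM/DSS (median -0.01), and 13 were higher and 7 lower in WMW-H than in control (median 0.09). The background was 45.5% higher and 20.6% lower, 25.9% and 40.9%, and 35.4% and 24.1% of all tested genes in the 3 comparisons, and nothing about the list is read from counts near these shares. Casp1, the inflammasome protease, had 57.0, 34.6 and 50.1 FPKM, and Casp4, the sensor of cytosolic lipopolysaccharide, 12.3, 8.07 and 12.6. Both fell in AOM/DSS and rose in WMW-H (limma, largest adjusted p = 5.84e-04). Rnf213, a ubiquitin ligase that coats bacteria, had 41.0, 21.2 and 28.2 FPKM. The caspase substrates named by the rule were Il18, Il1b and Gsdmd, each called higher in AOM/DSS and lower in WMW-H against it. Il18 had 12.8, 34.4 and 27.3 FPKM, Il1b 1.26, 10.3 and 5.28, and Gsdmd, which forms the pore of pyroptosis, 49.8, 61.2 and 56.2, where the fall was lost with size factors (limma adjusted p = 0.215) and quantile normalization (0.135). Atg5, of the autophagy conjugation machinery, had 10.1, 8.74 and 16.3 FPKM and was above control in WMW-H (adjusted p = 5.00e-09).

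Across the 15 libraries, Gbp2, Gbp3, Gbp6 and Gbp7 correlated with each other at r = 0.836 to 0.957 on the log2 scale, and Gbp5 at 0.536 with Gbp2 and 0.080 with Gbp7. These values describe 3 group levels more than single libraries. The 8 genes with the profile most like the mean of the tested members, by Pearson r over 15 libraries, were Casp1 (0.982), Trim30a (0.977), Slc13a1 (0.976), H2-T3 (0.975), Agr2 (0.973), Cdx2 (0.972), Phf11b (0.971) and Rtp4 (0.971). Trim30a and Rtp4 are interferon-induced, while Cdx2 is the transcription factor of intestinal identity and Agr2 a chaperone of goblet cells.

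Several marker lists of other cells moved with the groups, and their part in the family's differences was not tested. Smooth muscle sums overlapped in all 3 groups, and B cell sums overlapped between control and AOM/DSS. Over all tested genes 20.6% were called lower and 45.5% higher in AOM/DSS against control. The share called higher in WMW-H against AOM/DSS was 25.9%, and the share called lower in WMW-H against control was 24.1%. T and NK cell markers, of which 9 of 10 tested fell and 1 rose in AOM/DSS, summed to 72.3 to 77.5 FPKM in control, 25.8 to 30.8 in AOM/DSS and 31.0 to 32.4 in WMW-H. Of 9 pancreas markers, all 9 were lower in AOM/DSS than in control, all 9 higher in WMW-H than in AOM/DSS, and 8 lower in WMW-H than in control, the exception being Amy2a5 at 501.3 FPKM in control and 544.3 in WMW-H. They summed to 19070 to 19430, 4106 to 4214 and 7577 to 7882 FPKM in the 3 groups, with Ins2 at 0 in every AOM/DSS library. Macrophage markers moved against the family: all 10 were higher in AOM/DSS than in control, at 345.8 to 374.9, 741.6 to 760.2 and 593.3 to 630.3 FPKM. Endothelial markers, 7 of 8 higher in AOM/DSS, summed to 64.8 to 67.9, 94.2 to 98.7 and 83.8 to 86.6 FPKM. Neutrophil markers, of which all 5 tested were higher in AOM/DSS, summed to 11.3 to 14.4, 73.8 to 91.5 and 41.5 to 53.2 FPKM, with S100a8 at 0 in control. B cell markers summed to 29.3 to 34.2, 28.8 to 33.5 and 13.5 to 16.0 FPKM, fibroblast markers to 202.3 to 209.3, 328.8 to 349.7 and 379.9 to 416.2, and smooth muscle markers to 2002 to 2063, 2019 to 2085 and 2004 to 2116. Colon epithelium markers were at 9582 to 9648, 8379 to 8436 and 8096 to 8732 FPKM, with 7 of 11 lower and 3 higher in AOM/DSS.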

How the data were processed

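Polyadenylated RNA of 15 colon libraries was sequenced on an Illumina instrument, as the labels' protocols say. The authors deposited 1 table of FPKM values for 22063 genes. Tools named in the submitters' processing notes are RSEM, HISAT2, StringTie 1.3.1, fastp 0.18.0 and Bowtie2 2.2.8. For build, annotation and read length: not given in the sources used here. Groups come from the treatment labels.

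The 12917 genes that reached 1 FPKM in 5 or more libraries were put on the log2(FPKM + 1) scale, which understates differences of low genes. All libraries entered 1 fit by limma 3.58.1 (R 4.3.3) with a trended prior. Two-sided p-values were adjusted by Benjamini-Hochberg across the tested genes. A gene low in 1 group can pass the filter through the others. Fold values are ratios of mean FPKM. The script was tested on simulated data.

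Depth was estimated from whole-fragment steps of 3328 single-transcript genes, as the depth that best brought low values to whole fragments. At that depth 86.0% to 90.6% of low values per library came within 0.1 of a whole fragment. The chance share is 20% for a fixed depth, and was not worked out for a depth fitted to these same values. Lengths and shared 50- and 100-base stretches come from GENCODE M21. Fragment estimates use the longest coding transcript and cover counting error only.

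Members, lists and tests were chosen with earlier results of these data known. Named genes were the members, up to 6 genes per pathway list with the smallest adjusted p in AOM/DSS against control, called genes against their list's majority, Ifng, Irf1, Irf8 and the 8 most alike in profile. Some genes that this rule takes are not reported here. Same-numbered libraries of different groups did not deviate together (r from -0.0472 to 0.0298), so no pairing was used. Alternatives were pseudocounts of 0.1 and 0.5, no filter, a minimum of 5 FPKM, TPM, size factors, quantile normalization, fits of 2 groups, no trend, a replicate block, and leaving out each library.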

Additional observations from a re-analysis of the deposited data

How the results depend on the processing

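AOM/DSS against control gave 4 lower members, and 7 with size factors, 7 with quantile normalization, 6 with no filter (Gbp2b and Gbp8 added), 5 in the 2-group fit (Gbp4 added) and 3 with a minimum of 5 FPKM. WMW-H against AOM/DSS gave 5 higher members, and 6 with size factors and 6 with quantile normalization (Gbp4 added), 7 with no filter (Gbp2b and Gbp10 added) and 3 with a minimum of 5 FPKM, where fewer members were tested. WMW-H against control gave 1 higher member, 2 with no filter (Gbp5 and Gbp10) and 0 with a minimum of 5 FPKM, where Gbp5 was not tested. Its 4 lower members were 5 with quantile normalization (Gbp9 added) and 3 with a minimum of 5 FPKM. With a replicate block the counts stayed at 4 lower, 5 higher, and 1 higher with 4 lower. Leaving out 1 library gave 4 to 6 lower members (6 without control replicate 2), 5 to 6 higher, and 1 higher with 4 lower. Of all tested genes, 20.6% were lower in AOM/DSS against control, 29.8% with size factors, 32.3% with quantile normalization and 16.7% with no filter. In WMW-H against AOM/DSS 25.9% were higher, and 19.1% with no filter. In WMW-H against control 24.1% were lower and 35.4% higher, and 25.9% higher with no filter. Shares for the other settings are not given here, so nothing about the members is read from counts in them. Some signs turned, and the cause was not tested. In WMW-H against control, Gbp4 went to -0.0198 with size factors, -0.0669 with quantile normalization and from -0.0928 to 0.0815 with 1 library left out. Casp4 went to -0.0122, -0.0241 and from -0.0513 to 0.113 in the same settings, and none of these passed the test. Agr2, called lower at -0.30, was called higher at 0.129 with quantile normalization (limma adjusted p = 3.01e-06). In WMW-H against AOM/DSS, Ciita went to 0.0345 with size factors, 0.0566 with quantile normalization and from -0.0378 to 0.0224 with 1 library left out. Irf1 went to 0.0153 with size factors, Irf2 to -0.0456 with TPM and from -0.0140 to 0.0360 with 1 library left out, and Irf8 to -0.0501 and from -0.0192 to 0.0222 likewise. In AOM/DSS against control, Irf2 went to -0.0046 and Jak2 to -0.0825 with size factors, and Jak2 to -0.117 with quantile normalization. The Gbp2 to Gbp5 ratio in WMW-H against AOM/DSS went to -0.0593 with a pseudocount of 0.1, and the Gbp3 to Gbp7 ratio in WMW-H against control from -0.0087 (without WMW-H replicate 4) to 0.0886 with 1 library left out. Depth limits Gbp2b, Gbp8 and Gbp10, which rest on few fragments.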
